A study of Mus musculus with 16 samples.

Results

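Hox genes encode homeodomain transcription factors and lie in 4 clusters (A, B, C and D) in the mouse. The members described here were all probe sets, the short groups of oligonucleotides that read 1 transcript on an Affymetrix array, whose single gene symbol in the platform annotation was 1 of 38 listed Hox genes. There were 48 such probe sets among 45101 in the table, and they covered 33 of the 38 genes. Hoxa6, Hoxb8, Hoxc11, Hoxc12 and Hoxd4 had no probe set of their own, and 3 probe sets with several symbols were left out. The arrays compared C57BL/6J mice of founder line 4, which carry a CRISPR-made deletion of 4 bases in the SINE exon of a brain transcript of Ppargc1a (SINE KO, here KO), with WT littermates matched for age. The KO group is 1 line, and the deletion is predicted to stop translation of that isoform while its transcript remains. Remnants of the brain stem were removed by hand at dissection, and the labels give no ages. The 8 groups, of 2 arrays each, were KO female cerebellum, WT female cerebellum, KO male cerebellum, WT male cerebellum, KO female rest of brain, WT female rest of brain, KO male rest of brain and WT male rest of brain. Nothing in the labels says which arrays share an animal.

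Along each cluster, genes near one end are switched on first and furthest forward in the embryo, and those near the other end later and further back. Genes at the same place in different clusters are numbered alike and form paralog groups 1 to 13. In the developing nervous system the low-numbered groups pattern the hindbrain and the higher-numbered groups the spinal cord. The cerebellum forms from the front of the hindbrain, ahead of the Hox territory, and the forebrain and midbrain lie ahead of it too.

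The values in the table are not intensities. They take 5 distinct numbers, which were read as calls: the highest as detected, the next as marginal, and 0 and the 2 negative numbers as not detected. No source states this reading. It rests on controls. All 18 hybridisation control probe sets (bioB, bioC, bioD and cre) and all 8 of Actb and Gapdh were detected on all 16 arrays. None of 3 trpn control probe sets was detected on any. Some other controls were less uniform, with AFFX-ThrX-5_at on 15 arrays. The AFFX-TransRecMur probe sets were on 14, 1 and 0 arrays, and those of AFFX-PyruCarbMur on 16, 1, 4 and 16. A call says whether a transcript was seen and not how much of it there was. In dissected tissue, fewer cells of a type and less RNA per cell cannot be told apart. The 5 probe sets of Ppargc1a were detected on all 8 KO and all 8 WT arrays, which does not check the deletion. Between 25517 and 28155 probe sets were detected per array.

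Promoter sequences from RefSeq (GRCm38.p6, 250 bases before the transcript start to 50 after, on the gene's strand) were at hand for 11 of the 17 Hox genes detected on at least 1 array. Those of Hoxa2, Hoxa3, Hoxa5 and Hoxd1 are shown because these genes, with Hoxa4 and Hoxb3, were detected together on 3 female cerebellum arrays. Capitals mark matches, on either strand, to AGGTCA, the half-site of retinoic acid receptors, or to TGATNNAT, a composite site of a Hox and a Pbx protein.
Hoxa2 (chr6:52164782-52165081, minus strand): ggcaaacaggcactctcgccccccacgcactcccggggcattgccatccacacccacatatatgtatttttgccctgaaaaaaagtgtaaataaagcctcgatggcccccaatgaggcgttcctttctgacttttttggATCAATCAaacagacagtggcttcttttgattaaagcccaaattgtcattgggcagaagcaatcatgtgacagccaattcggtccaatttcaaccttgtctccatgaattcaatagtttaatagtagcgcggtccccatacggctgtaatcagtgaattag
Hoxa3 (chr6:52213018-52213317, minus strand): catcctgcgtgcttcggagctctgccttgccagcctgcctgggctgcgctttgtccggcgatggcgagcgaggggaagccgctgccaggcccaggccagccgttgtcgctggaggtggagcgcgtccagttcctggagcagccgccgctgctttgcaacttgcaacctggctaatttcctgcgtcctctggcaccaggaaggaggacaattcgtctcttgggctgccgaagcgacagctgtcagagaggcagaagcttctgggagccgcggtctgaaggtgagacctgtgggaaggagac
Hoxa5 (chr6:52204538-52204837, minus strand): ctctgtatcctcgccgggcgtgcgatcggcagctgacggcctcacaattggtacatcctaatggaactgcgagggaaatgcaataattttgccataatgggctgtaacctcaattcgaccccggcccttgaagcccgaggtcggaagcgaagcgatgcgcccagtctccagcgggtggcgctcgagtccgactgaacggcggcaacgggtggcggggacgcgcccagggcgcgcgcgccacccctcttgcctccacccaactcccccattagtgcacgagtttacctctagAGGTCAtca
Hoxd1 (chr2:74762730-74763029, plus strand): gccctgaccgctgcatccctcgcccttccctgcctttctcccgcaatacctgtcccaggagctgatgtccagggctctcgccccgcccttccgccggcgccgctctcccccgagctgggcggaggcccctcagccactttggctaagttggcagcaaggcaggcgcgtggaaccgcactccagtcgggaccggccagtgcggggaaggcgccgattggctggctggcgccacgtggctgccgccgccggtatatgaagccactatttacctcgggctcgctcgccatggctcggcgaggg

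Hoxa2 held 1 match to TGATNNAT and Hoxa5 held 1 match to AGGTCA, while the windows of Hoxa3 and Hoxd1 held neither. Over the 24 Hox promoters in the table, 7 held AGGTCA and 4 held TGATNNAT. Among all 32851 promoters of this length the shares were 16.3% and 8.85%. The Hox promoters had a median GC content of 57.7% and a median of 14.5 CpG dinucleotides, against 52.7% and 7 over all promoters. These matches are letters in a window and were not tied to binding.

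At least 1 array of each brain part leaned toward the other part in its markers. WT female cerebellum replicate 2 detected 10 of 13 forebrain probe sets, against 4 to 7 on the other cerebellum arrays and 12 on every rest-of-brain array. It detected 12 of 18 granule cell probe sets, against 16 to 18 on the other cerebellum arrays, and 16 of 23 Purkinje cell probe sets, against 20 to 21. These counts lay within the ranges of the rest-of-brain arrays, which were 8 to 14 and 15 to 20. KO female rest of brain replicate 1 detected 14 granule and 20 Purkinje cell probe sets, against 8 to 13 and 15 to 17 on the other rest-of-brain arrays, and 12 forebrain probe sets like the others. The comparison of KO with WT in the female cerebellum is given with and without WT replicate 2. Without KO replicate 1, the median number of Hox probe sets per rest-of-brain array was 5, against 4 with it. The median was also 5 without any 1 of the other female rest-of-brain arrays, and 3 without any 1 of the male ones. The shift was thus not particular to that array.

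Hox transcripts were rarely detected in either brain part. Of the 48 Hox probe sets, 25 (52.1%) were detected on no array, 23 (47.9%) on 1 to 15 arrays and 0 on all 16. Over all 45101 probe sets the same shares were 27%, 25% and 48%. Of the 768 Hox values, 87 (11.3%) were at the detected level, against 59.7% of all values. At the gene level, 17 Hox genes were detected on at least 1 array and 16 were never detected.

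**Figure D1:**
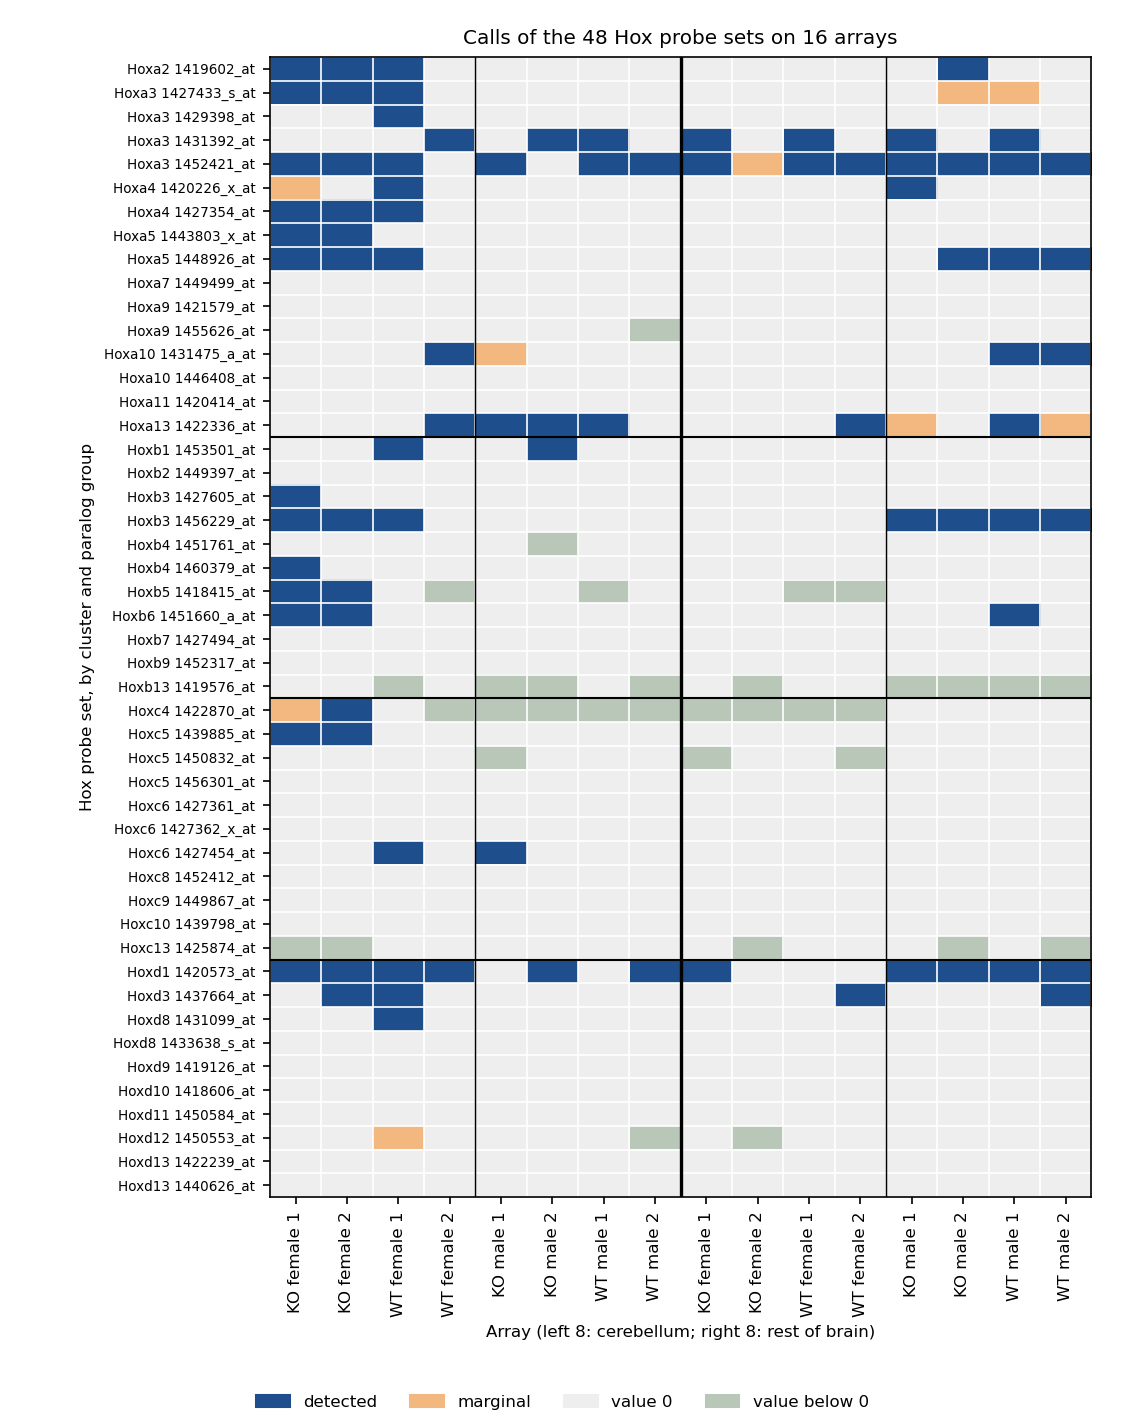
Calls of the 48 Hox probe sets (rows, by cluster A to D and paralog group) on the 16 arrays (columns, cerebellum left and rest of brain right). Dark cells are detected, orange cells marginal, light cells 0 and green cells below 0; the dark cells gather in the upper rows of clusters A and B on both KO and 1 WT female cerebellum arrays.

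Detection was concentrated at the low-numbered end of the clusters. The 22 probe sets of paralog groups 1 to 5 were detected in 72 of 352 values (20.5%), and the 26 of groups 6 to 13 in 15 of 416 (3.61%). Group 1 (Hoxb1 and Hoxd1) was detected in 40.6% of its values, 11 of 13 from Hoxd1 and 2 from Hoxb1, and group 3 (Hoxa3, Hoxb3 and Hoxd3) in 32.1%. Groups 2, 4 and 5 lay between 8.75% and 12.5%. Groups 6, 8 and 10 lay at 7.81%, 2.08% and 4.69%, so group 6 was close to group 4 (8.75%). Of the 72 detected values of groups 1 to 5, 13 came from Hoxa3 1452421_at and 11 from Hoxd1. Groups 7, 9, 11 and 12 were detected in 0% of their values, and group 13 in 7.5%, all of it from Hoxa13. By cluster, 19.5% of HoxA values were detected, 9.09% of HoxB, 2.84% of HoxC and 10% of HoxD, and no HoxC probe set was detected on a rest-of-brain array. The split by paralog group is a description, since probe sets differ in how well they read their transcript.

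**Figure D2:**
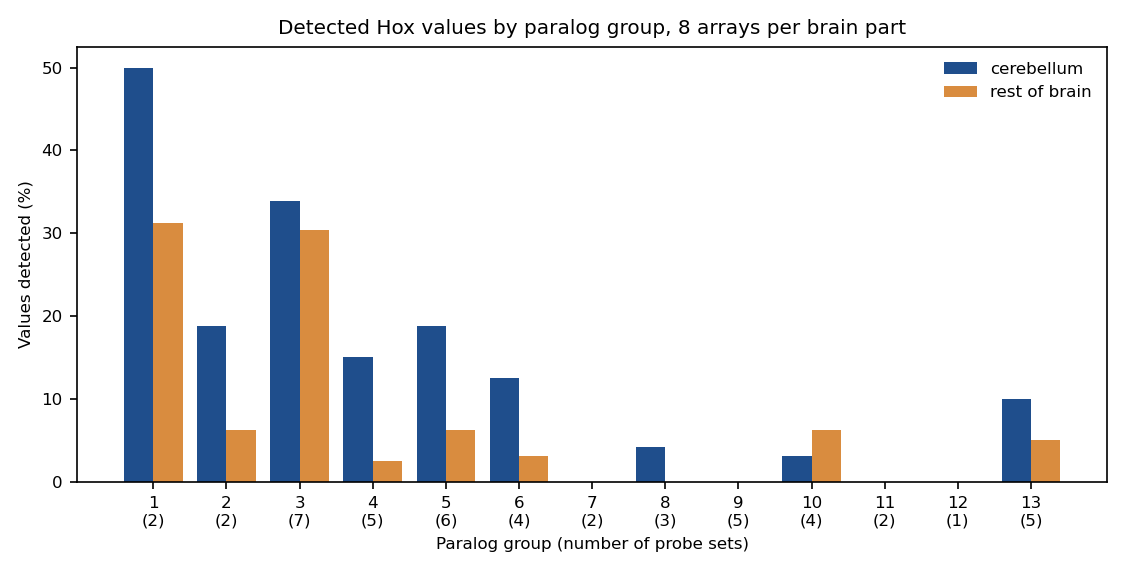
Share of Hox values at the detected level (y axis, percent) by paralog group (x axis, number of probe sets in brackets), over 8 cerebellum and 8 rest-of-brain arrays. Groups 7, 9, 11 and 12 have no bar in either part, and group 1 has 50% for cerebellum and 31.3% for rest of brain.

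Each array differed widely in how many Hox probe sets it detected. In the female cerebellum, the KO arrays detected 13 and 13 of 48, and the WT arrays 13 and 4. In the male cerebellum, the KO arrays detected 3 and 4 and the WT arrays 3 and 2. In the female rest of brain, the KO arrays detected 3 and 0 and the WT arrays 2 and 3. In the male rest of brain, the KO arrays detected 5 and 5 and the WT arrays 8 and 6. The 3 highest arrays were thus female cerebellum, both KO and WT replicate 1, and WT replicate 2 of the same group lay among the male cerebellum arrays. Of groups 1 to 5 alone, the female cerebellum arrays detected 12 and 12 (KO) and 11 and 2 (WT), while the male cerebellum arrays detected 1 and 3 (KO) and 2 and 2 (WT). The median over the 8 arrays was 4 for cerebellum and 4 for rest of brain.

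**Figure D3:**
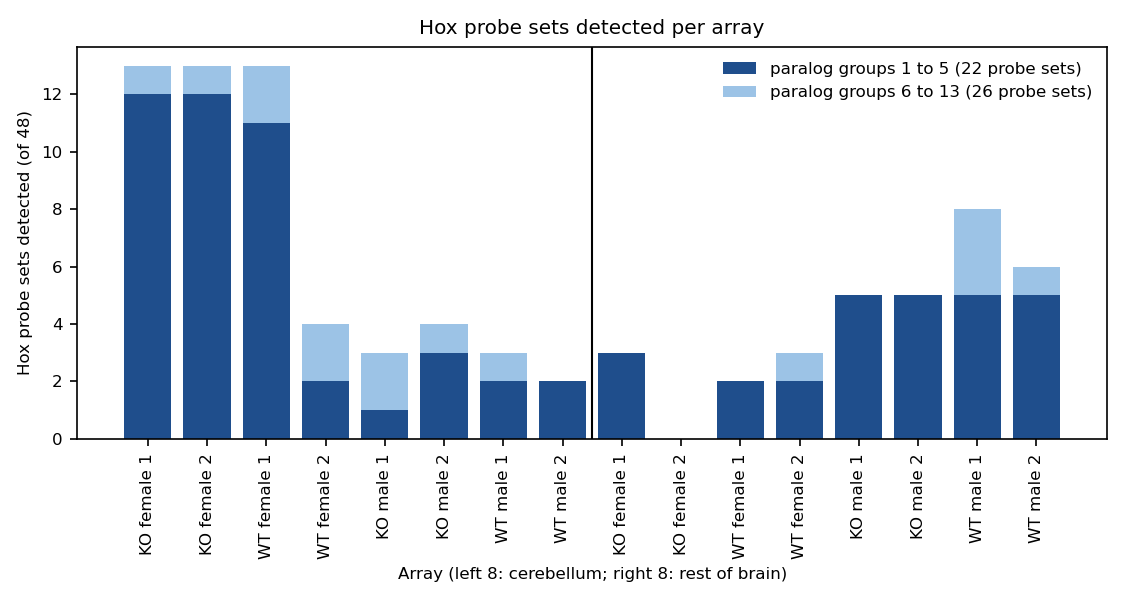
Number of Hox probe sets detected (y axis, of 48) on each of the 16 arrays (x axis), split into paralog groups 1 to 5 and 6 to 13. The KO female cerebellum arrays reach 13 and 13 and the WT female cerebellum arrays 13 and 4, and the other 12 arrays lie between 0 and 8.

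The 3 high arrays, singled out here by their Hox counts, shared anterior Hox genes. Both KO arrays and WT replicate 1 had 7 probe sets in common, of Hoxa2, Hoxa3 (2 probe sets), Hoxa4, Hoxa5, Hoxb3 and Hoxd1 (14.6% of Hox, against 54.9% of all probe sets). Of these, 5 (10.4%, against 0.0754% of all) were on no other cerebellum array: Hoxa2, Hoxa3 (1427433_s_at), Hoxa4 (1427354_at), Hoxa5 (1448926_at) and Hoxb3 (1456229_at). Hoxa2 sets the identity of the second branchial arch, and the group 3 genes pattern the hindbrain segments behind it. In all, 20 Hox probe sets (41.7%, against 65.2% of all) were detected on at least 1 of the 3 arrays. On no other cerebellum array were 16 of them (33.3%, against 2.14% of all), and on no other array at all 10 (20.8%, against 0.938% of all). Since the arrays were picked by the Hox calls themselves, these shares are a description. The KO arrays shared 11 of their 13 Hox probe sets with each other. KO replicate 1 shared 7 with WT replicate 1 and KO replicate 2 shared 8 with it, and each KO array shared 1 with WT replicate 2. Over all probe sets, between 91.5% and 94.9% of those on a KO array were also on the other array of each of these pairs.

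Some Hox probe sets separated KO from WT in the female cerebellum. Hoxa5 (1443803_x_at), Hoxb5 (1418415_at), Hoxb6 (1451660_a_at) and Hoxc5 (1439885_at) were detected on both KO and neither WT array. These are genes of paralog groups 5 and 6, whose products pattern the cervical and upper thoracic levels of the embryo. They made up 4 of 48 Hox probe sets (8.33%), against 0.743% of all 45101 probe sets. Only probe sets detected on 1 to 15 arrays can split in this way, and these were 47.9% of Hox but 25% of all. All probe sets are thus not a like background for this or the other shares of splits given here. In the opposite direction, both WT and neither KO array, there were 0 of 48, against 0.71% of all. With 2 arrays against 2 the smallest exact p for a probe set is 0.333, so no probe set could pass a test here.

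The full calls of these 4 probe sets show where else they were seen. Hoxa5 1443803_x_at and Hoxc5 1439885_at were detected on the KO female cerebellum arrays and on no other of the 16. The other Hoxc5 probe sets, 1450832_at and 1456301_at, were detected on no array, the KO female cerebellum included. Hoxb6 1451660_a_at was detected there and on WT male rest of brain replicate 1. Hoxb5 1418415_at was detected on the KO female cerebellum arrays alone, and on 4 others, all of WT mice, its value was below 0. The second Hoxa5 probe set, 1448926_at, was also detected on WT female cerebellum replicate 1 and on 3 male rest-of-brain arrays, so at the gene level Hoxa5 did not separate KO from WT. An ending of _x_at marks probes that may match other transcripts, and 3 of the 48 Hox probe sets have it.

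The count depended on a single WT array. Without WT female cerebellum replicate 1, 10 Hox probe sets (20.8%) were on both KO arrays and not on the remaining WT array, against 2.52% of all probe sets. Without WT replicate 2 there were 4 (8.33%), against 1.64% of all. Turned round, 3 Hox probe sets (6.25%, against 2.39% of all) were on WT replicate 2 and neither KO array, namely Hoxa3, Hoxa10 and Hoxa13. On WT replicate 1 and neither KO array there were 5 (10.4%, against 1.82% of all), of Hoxa3, Hoxa4, Hoxb1, Hoxc6 and Hoxd8.

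In the other 3 combinations of sex and brain part, KO and WT arrays rarely split. Hoxa10 (1431475_a_at), a gene of the lumbar region, was detected on both WT and neither KO array of the male rest of brain. It was 1 of 48 (2.08%), against 0.448% of all probe sets. This probe set was also detected on WT female cerebellum replicate 2 and was marginal on KO male cerebellum replicate 1. The other Hoxa10 probe set, 1446408_at, was detected on no array. No Hox probe set was on both KO and neither WT array in the male cerebellum, the female rest of brain or the male rest of brain (0.313%, 0.45% and 0.576% of all probe sets were). None was on both WT and neither KO array in the male cerebellum or female rest of brain (0.792% and 0.49% of all were).

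Counting any difference in the number of arrays, 13 Hox probe sets (27.1%) were on more KO than WT arrays of the female cerebellum and 8 (16.7%) on fewer, against 6.19% and 5.15% of all probe sets. The male cerebellum gave 3 (6.25%) and 1 (2.08%), against 3.69% and 6.91% of all. The female rest of brain gave 1 (2.08%) and 3 (6.25%), against 4.31% and 4.72%. The male rest of brain gave 2 (4.17%) and 5 (10.4%), against 4.87% and 4.06%. For Hox probe sets, the female cerebellum was the combination with the most differences in each direction. As above, only probe sets detected on 1 to 15 arrays can differ, a larger share of Hox than of all probe sets.

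Fisher's exact test, two-sided, with p-values adjusted by Benjamini-Hochberg across the whole table, called no Hox probe set at 8 arrays against 8. Each exact p takes the arrays as independent. The authors split each brain into cerebellum and the rest, so arrays of the different parts may come from the same mouse. Such a mouse would count more than once in the same arm of the genotype and sex comparisons. For the cerebellum against the rest of the brain, KO against WT, and female against male, 0 of 48 passed an adjusted p of 0.05 (background 0% in each). An unadjusted p under 0.05 was also reached by 0 of 48 in each, against 2.76%, 0.0843% and 0.286% of all probe sets. Only 5 of the 48 were detected on a number of arrays that would let an exact p fall below 0.05. The smallest unadjusted exact p was 0.2 in each comparison. It belonged to Hoxa3 (1427433_s_at) and Hoxa4 (1427354_at) for brain part, on 3 cerebellum and 0 rest-of-brain arrays, and to the same probe sets for sex, on 3 female and 0 male arrays. For genotype it belonged to Hoxa10 (1431475_a_at), on 0 KO and 3 WT arrays. Even a probe set on all 8 arrays of one brain part and none of the other had an adjusted exact p of 0.0501 here and was not called. When only the 3873 probe sets able to reach an exact p under 0.05 were tested, 17.1% of them passed adjustment between brain parts, 0% between genotypes and 0% between sexes, and 0 Hox probe sets in each.

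Among Hox probe sets, tests within subsets of the arrays singled out 1456229_at of Hoxb3 alone. Over all arrays it was on 3 female and 4 male arrays, so the sexes differed only within a brain part. The probe set 1456229_at was detected on all 4 male rest-of-brain arrays, 2 KO and 2 WT, and on no female rest-of-brain array and no male cerebellum array. In the female cerebellum it was detected on both KO arrays and WT replicate 1. Among all probe sets, 0.0399% were on all 4 male and no female rest-of-brain arrays, and 0.847% on all 4 male rest-of-brain and no male cerebellum arrays. Groups of 4 arrays against 4 give a smallest exact p of 0.0286 for 1 probe set, and none passed adjustment. The second Hoxb3 probe set, 1427605_at, was detected on KO female cerebellum replicate 1 alone.

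The probe sets detected most widely were Hoxa3 1452421_at, on 13 arrays, and Hoxd1 1420573_at, on 11. Hoxa3 1452421_at was missing from WT female cerebellum replicate 2, KO male cerebellum replicate 2 and KO female rest of brain replicate 2, where it was marginal. Hoxd1 was on all 4 female cerebellum arrays, on 1 KO and 1 WT male cerebellum array, on 1 KO and 0 WT female rest-of-brain arrays, and on all 4 male rest-of-brain arrays. Hoxa3 has 3 more probe sets, on 7 (1431392_at), 3 (1427433_s_at) and 1 (1429398_at) arrays, with little agreement among them. Of the 11 Hox genes with several probe sets, 5 had some but not all of these detected on any array. Hoxa13, a gene of the limb tips and hindgut, was detected on 6 arrays spread over both genotypes, both sexes and both brain parts.

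Levels below 0 were more frequent among Hox values, 34 of 768 (4.43%), than among all values (1.46%). Hoxb13 and Hoxc4 had 9 such values each, Hoxc13 5, Hoxb5 4 and Hoxc5 3. What these levels stand for is not settled, and leaving them out as missing left the 4 Hox probe sets of the KO female cerebellum at 4.

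Most partners of the Hox proteins were detected on every array. Of 20 probe sets of the TALE cofactors (Pbx, Meis and Pknox proteins, which bind DNA together with Hox proteins), 16 to 18 were detected on each array. Pbx4 was the exception, with 1 probe set on no array (1454912_at) and 1 on 0 cerebellum and 4 rest-of-brain arrays (1449916_at). Of 57 probe sets of Polycomb and trithorax regulators, which keep Hox genes silent or active, 38 to 43 were detected on each array. Of 17 probe sets of a list of Hox inducers and of retinoic acid receptors and enzymes, 2 to 6 were detected on each array. The Cdx genes were not detected. The 5 probe sets of antisense and non-coding transcripts of the clusters were detected on no array. Among the genes beside the clusters, Evx1, Evx2 and Ttll6 were detected on no array, while 18 to 24 of that list's 29 probe sets were detected on each. No probe set of these lists passed the adjusted test in any of the 3 comparisons. Without adjustment, 4 of their 128 probe sets (3.12%) had an exact p under 0.05 between the brain parts, near the 2.76% of all probe sets. These were 1450992_a_at of Meis1, on 8 cerebellum and 3 rest-of-brain arrays, 1427683_at of Egr2, on 0 and 6, 1427559_a_at of Atf2, on 2 and 8, and 1457097_at of Skap2, on 0 and 5. Other probe sets of Meis1, Atf2 and Skap2 were detected on all 16 arrays, so these genes were detected in both brain parts.

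Some markers of hindbrain and brain stem neurons, other than Hox genes, were detected on the same cerebellum arrays as the Hox genes, and others were not. Of 31 probe sets, the female cerebellum arrays detected 11 and 14 (KO) and 15 and 9 (WT), and the male cerebellum arrays 7 to 8. The female rest-of-brain arrays detected 11 and 9 (KO) and 4 and 5 (WT), and the male rest-of-brain arrays 8 to 10. Tph2, the brain enzyme of serotonin synthesis, was seen on 3 cerebellum arrays, those of both KO females and WT female replicate 1, and on 7 rest-of-brain arrays. Slc6a4, the serotonin transporter, was detected on the KO female cerebellum arrays and on no other array. Prph encodes an intermediate filament of peripheral and some brain stem neurons. Its probe set 1422530_at, 1 of several, was on all 4 female and no male cerebellum arrays. The calls of the other Prph probe sets are not given here, so this split is not shown for the gene. Uncx, Slc6a5 (1442177_at) and Gata2 (1450333_a_at), by contrast, were detected on all 8 cerebellum arrays. These Slc6a5 and Gata2 probe sets were also on 5 and 8 rest-of-brain arrays, and another Slc6a5 probe set (1425992_at) was on no array. Tlx3 was on 7 cerebellum arrays, all 4 male ones included, and Gata3 and Gata2 (1428816_a_at) were on WT female cerebellum replicate 2 alone. Uncx, on 8 cerebellum and 2 rest-of-brain arrays, and Tlx3, on 7 and 0, had the list's only unadjusted exact p under 0.05 between the brain parts (0.00699 and 0.0014), with adjusted p of 0.476 and 0.161. These genes were chosen after their calls were seen, 12 of the 31 probe sets were on no array, and the part of such cells in the Hox calls was not tested.

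**Figure D4:**
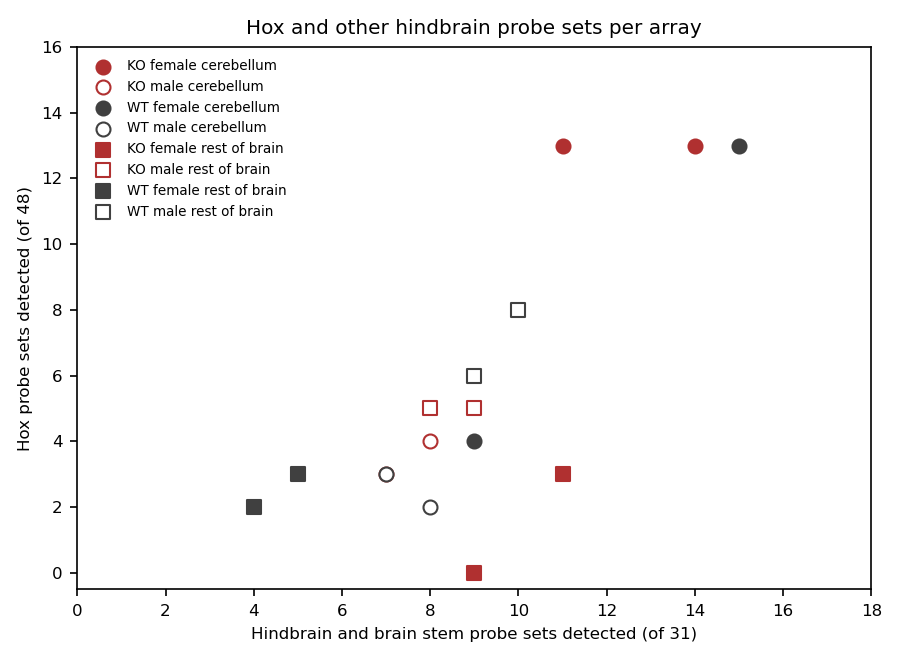
Hox probe sets detected (y axis, of 48) against probe sets of hindbrain and brain stem neurons other than Hox genes (x axis, of 31), 1 point per array, with 2 male cerebellum points lying on each other at 7 and 3. Both KO female cerebellum arrays and WT replicate 1 lie at the upper right, at 11 to 15 on the x axis.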

How the data were processed

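RNA from both brain parts of KO and WT mice was hybridised to Affymetrix arrays, 2 per group. The authors ran MAS5 per the methods and the submitters' processing notes (RMA per their results text). The methods name a human array, but the probe set names are of a mouse array. The deposited value table has no intensities and holds other numbers in place of signal: 5 distinct numbers, here read as calls, with values above 5e-38 detected. Array number limits the precision.

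Gene names came from the platform annotation, updated through RefSeq (GRCm38.p6): 34958 probe sets have 1 symbol, 932 several and 9211 none. Each probe set was tested by Fisher's exact test, two-sided, with Benjamini-Hochberg adjustment. With 200 full switches simulated at once, all were recovered in each comparison, with at most 1 false call; a first requirement of 0 false calls was replaced by a false share of at most 0.05. That says nothing of power here, since full switches in the real table had an adjusted p of 0.0501. Calls on every array are given for Hox probe sets with an unadjusted p under 0.05 or switched between KO and WT in a sex and brain part. Members, lists and tests were chosen with earlier results of these data known. The exact p-values compare counts of arrays with a detected call, take arrays as independent and do not measure the spread between animals. Alternatives counted marginal calls as detected, left out negative levels, tested fewer probe sets, stratified, paired by replicate number, used genes, and left out each array. Python 3.11.15 with numpy, pandas, scipy and matplotlib was used. Fold changes were not analysed here.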

Additional observations from a re-analysis of the deposited data

Results flagged for a closer look

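WT female cerebellum replicate 2 detected 4 Hox probe sets, the lowest of the 4 female cerebellum arrays and far from the other 3 at 13 each. For paralog groups 1 to 5 the same array detected 2, again the lowest of the 4, against 11 to 12. Among the 4 WT cerebellum arrays, WT female replicate 1 detected 11 probe sets of groups 1 to 5, against 2 on each of the others. These were 3 of 38 checks, and chance alone sets apart about 1 group in 20 by such a gap. The 3 results rest on the same arrays, and over all 8 cerebellum arrays no array was set apart.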

How the results depend on the processing

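The number of Hox probe sets passing the adjusted Fisher's exact test was 0 in all 3 comparisons under every alternative tried, leaving out each array included (range 0 to 0). For the main test, the stratified test, the pairing by replicate number and the subsets of 4 arrays against 4, this 0 is no measure of stability. Stratifying or pairing makes the smallest exact p within reach larger than in the main test. The main test called 0 of all 45101 probe sets in each comparison. Even a probe set on all 8 cerebellum and 0 rest-of-brain arrays had an adjusted exact p of 0.0501. With 4 arrays against 4, the smallest exact p was 0.0286 before adjustment. At 8 against 8, an unadjusted exact p under 0.05 was within reach of 5 of the 48 Hox probe sets. Hox probe sets on both KO and neither WT array of the female cerebellum numbered 4, and 4 to 10 when an array was left out, with 10 without WT replicate 1. The opposite direction numbered 0, and 0 to 5, with 3 without WT replicate 1 and 5 without WT replicate 2, since a single WT array then had to be detected. Counting marginal calls as detected gave 5 and 0, and counting genes gave 3 and 0. The median per array stayed at 4 in the cerebellum (4 to 4) and ranged from 3 to 5 in the rest of the brain. With the replicate block, pairing arrays by number, 0 Hox probe sets were called. Its exact sign test has at most 8 pairs, too few for any probe set to pass adjustment here. Deviations of same-numbered arrays correlated between -0.02 and 0.07 over 12 pairs of groups. These pairs include groups of different genotype or sex, and most probe sets did not vary, so this cannot show whether a number marks 1 animal. The labels do not name the animals, and the numbers were not taken as pairs. Limiting the test to the 3873 probe sets able to reach an exact p under 0.05 called 662 (17.1%) between brain parts, 0 of them Hox, and 0 for genotype and sex.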
